A study of Mus musculus with 6 samples.

Results

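Cytochrome P450 genes, the Cyp genes, were followed in mouse embryonic stem cells with a disrupted Pml gene (genotype Pml-/-, 3 samples) and in wild-type cells (3 samples), all of the E14 line. The Pml protein organizes the nuclear bodies that carry its name. Members were chosen by symbol: every row whose symbol is Cyp, a family number and a subfamily letter, without Cyp26a1, which leaves out Cyp51. This gave 103 of the 24421 genes in the table, among them 4 pseudogenes and 1 antisense transcript, and no member was a repeated row. The group was singled out with the difference of Cyp2b23 between the genotypes already known, so the values of Cyp2b23 are given as a description, with no p-value. Counts of members called include Cyp2b23 and are descriptions for the same reason. All cells were grown with serum, leukemia inhibitory factor and the inhibitors CHIR99021 and PD0325901, and polyadenylated RNA was sequenced. The 3 knockout columns share the prefix KO34, and no label says that they are separate clones or cultures, so each p-value reflects how far these 6 libraries vary, and that variation may be technical.

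P450 enzymes hold a heme group and use oxygen and electrons from a redox partner to oxidize small molecules. Families 1 to 3 are best known in the liver for the oxidation of drugs and other foreign compounds, and family 4 for the hydroxylation of fatty acids and eicosanoids. Other families make steroid hormones and bile acids from cholesterol, or activate and degrade vitamins A and D. Many Cyp genes stand in tandem clusters of closely related copies, and most are transcribed in few tissues.

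The knockout libraries held 5845653 to 8693079 counted reads and the wild-type libraries 9389186 to 11046725. Levels are CPM, the reads of a gene per 1000000 reads of its library, as mean ± SD of 3 libraries. Pml was at 76.3 ± 0.912 CPM in knockout cells and 191 ± 4.09 CPM in wild-type cells, and where the gene was disrupted is not stated. Chromosome Y transcripts also set the groups apart, with Ddx3y at 0.869 ± 0.189 CPM in knockout cells and 91.7 ± 5.26 CPM in wild-type cells. The 9 stem cell markers summed to 7249 to 7414 CPM in knockout libraries and 7067 to 7233 CPM in wild-type libraries, and 1 of them, Tdgf1, was higher in the knockout. Of 9 hepatocyte markers, Apoa2, Ttr, Serpina1a, Afp and Fgb were at 0 in all libraries, and the list summed to 1.20 to 1.73 CPM in knockout libraries and 0.484 to 1.17 CPM in wild-type libraries. Apob, the only hepatocyte marker tested, was at 1.25 ± 0.109 CPM in the knockout and 0.565 ± 0.383 CPM in wild type, and did not pass. Markers of endoderm summed to 68.1 to 79.4 CPM in the knockout and 71.5 to 75.6 CPM in wild type, nearly all of it Lama1, and none of the 3 tested passed. Fibroblast markers summed to 23.2 to 30.6 CPM in the knockout and 24.2 to 27.8 CPM in wild type, with Postn and Dcn at 0, and Pdgfrb was higher and Thy1 lower in the knockout. Blood markers summed to 15.9 to 19.9 CPM in the knockout and 18.8 to 21.2 CPM in wild type, with Ptprc, Adgre1, Hba-a1 and Hbb-bt at 0. Cd68 was at 13.9 ± 1.70 CPM in the knockout and 16.4 ± 0.568 CPM in wild type. Cd3e was at 3.75 ± 0.409 CPM in the knockout and 3.25 ± 0.831 CPM in wild type, and neither passed. Genes of the 2-cell stage were higher in the knockout in 8 of 8 tested and summed to 154 to 167 CPM in the knockout, against 59.2 to 62.2 CPM in wild type. Several of them are members of the Zscan4 and Usp17l families, and reads shared between such copies were not examined. Over all tested genes 6.54% were higher and 7.49% lower. The part of the low chromosome Y transcripts and of these marker differences in the P450 values was not tested.

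In these cells 28 of 103 P450 genes had at least 10 reads over the 6 libraries, 32 had 1 to 9 reads, and 43 had none. Cyp4f41-ps, with 12 reads, stood just inside that limit and Cyp19a1, the aromatase gene, with 9 reads, just outside it. At least 10 reads were found for 60.8% of all genes in the deposited list and none for 26.3%, whereas the P450 shares were 27.2% and 41.7%. The genes at 0 include the liver genes Cyp3a11, Cyp2c37, Cyp2a5, Cyp2d9, Cyp4a10 and Cyp8b1. A count of 0 allows a level of up to 0.136 CPM over the pooled knockout libraries and 0.0975 CPM over the pooled wild-type libraries, for counting error only. Together the 103 genes took 86.4, 75.3 and 86.9 CPM in the knockout libraries and 107.8, 118 and 112.3 CPM in the wild-type libraries. Without Cyp2b23 the sums were 83.7, 72.9 and 84.2 CPM in the knockout, against 85.2, 94.4 and 90.3 CPM in wild type. The groups did not overlap in either sum, but without Cyp2b23 the gap was narrow, from 84.2 to 85.2 CPM. That sum still holds Cyp20a1 and Cyp7b1, which the test below called lower in the knockout. Cyp20a1 alone was at 12.7 to 15.7 CPM in knockout libraries and 19.4 to 21.9 CPM in wild-type libraries. The gap is therefore no sign of a drop across the remaining members, whose sum on their own was not computed.

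**Figure D1:**
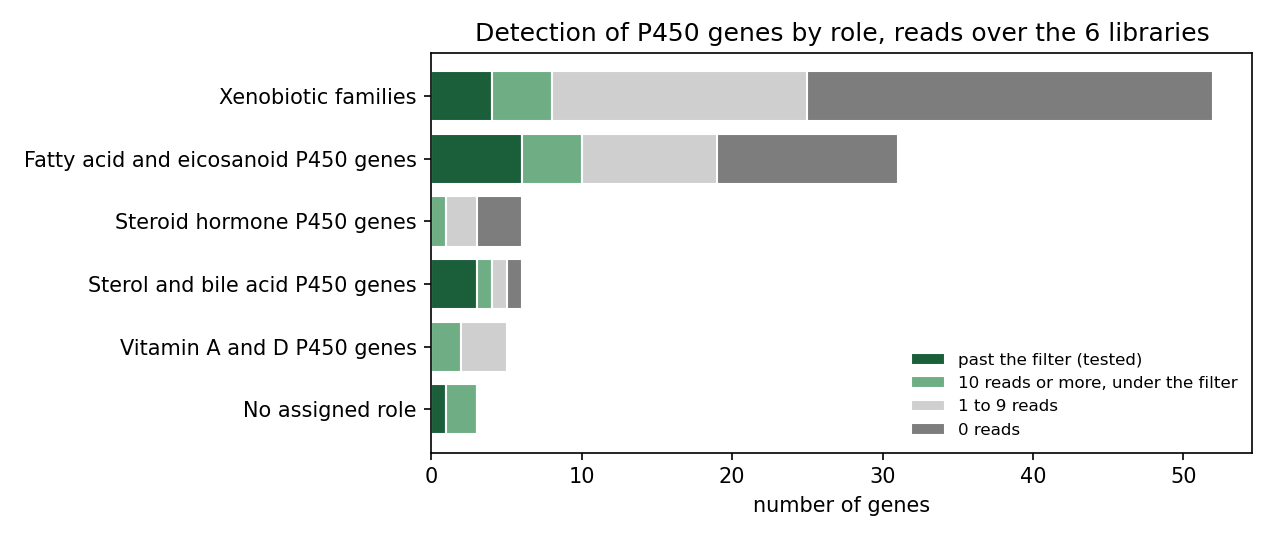
Number of P450 genes by role (bars) and by their reads over the 6 libraries (colours). Of 52 genes in the xenobiotic families 8 had at least 10 reads, whereas 10 of 31 fatty acid and eicosanoid genes and 4 of 6 sterol and bile acid genes did.

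The low-value filter of the test, about 1.11 CPM in 3 libraries, was passed by 14 P450 genes, which held 4859 of the 5313 P450 reads. In a limma fit over all 12435 genes that passed, 3 of the 14 were called lower in knockout cells (threshold of 0.05 on the adjusted p), as were 7.49% of all tested genes. These were Cyp2b23, Cyp7b1 and Cyp20a1. None of the 14 was higher, where 6.54% of all tested genes were; edgeR and DESeq2 also gave 0, and 1 gene, Cyp4f39, was higher at an unadjusted p under 0.05 in limma. Every knockout library stood lower than every wild-type library for 5 of the 14, against 15.0% of all tested genes, and higher for 3, against 15.1%. On the log2(CPM + 1) scale used for fold changes here, the added 1 CPM draws the values of low genes toward 0. The median log2 fold change, knockout over wild type on that scale, was -0.06 in the 14 genes and 0.00463 in all tested genes. These counts and the median are a description and support nothing: the group was put forward with the difference of Cyp2b23 known, and some members, Cyp7b1 among them, passed the filter through 1 genotype alone. Cyp7b1 and Cyp2j6 passed the filter only through the wild-type libraries, Cyp2u1 only through the knockout libraries, and Cyp2c70 and Cyp2e1 through libraries of both groups.

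Cyp2b23 and Cyp20a1, which were both lower in the knockout, have a start region in the RefSeq table (GRCm38.p6, the build also called mm10), shown here to set the sequence around their starts side by side. Each runs from 250 bases before to 50 bases after the annotated start, on the gene's strand. Capitals mark matches, on either strand, to 4 motifs, which do not overlap in these windows. TATAAA is the TATA box. AGGTCA is the half-site bound by many nuclear receptors. GCGTG is the core bound by AHR with ARNT, and the fourth motif is the CCAAT box.
Cyp2b23, chr7:26686381-26686680, minus strand: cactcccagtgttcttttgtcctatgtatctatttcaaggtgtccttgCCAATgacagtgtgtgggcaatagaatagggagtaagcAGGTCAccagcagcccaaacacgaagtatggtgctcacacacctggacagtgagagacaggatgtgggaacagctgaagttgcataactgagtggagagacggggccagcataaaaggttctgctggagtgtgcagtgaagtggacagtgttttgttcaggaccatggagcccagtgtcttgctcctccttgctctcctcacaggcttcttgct
Cyp20a1, chr1:60343050-60343349, plus strand: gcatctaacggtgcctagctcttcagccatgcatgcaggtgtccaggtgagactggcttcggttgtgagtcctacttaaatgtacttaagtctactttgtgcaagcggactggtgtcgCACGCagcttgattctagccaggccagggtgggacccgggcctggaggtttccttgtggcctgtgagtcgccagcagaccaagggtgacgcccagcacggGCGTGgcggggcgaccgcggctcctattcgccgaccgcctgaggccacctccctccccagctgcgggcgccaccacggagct
The Cyp2b23 window holds 1 CCAAT from its base 49 and 1 AGGTCA from its base 87, and 2 CpG dinucleotides. The Cyp20a1 window holds 2 matches to GCGTG, at base 119 on the opposite strand and base 219 on the gene's strand, and 20 CpG. Of 32851 RefSeq windows of this length, 37.4% hold CCAAT, 16.3% AGGTCA, 32.4% GCGTG and 13.6% TATAAA, and the median window holds 7 CpG. The deposited locus of Cyp2b23 begins 7270 bases upstream of the RefSeq start, and that of Cyp20a1 263 bases upstream. Both lie outside the printed windows, so the starts used in these cells may lie elsewhere. Windows were found for 76 of the 103 genes. The median number of CpG was 5 over 10 tested genes, 3 over 11 genes detected under the filter, 2 over 24 genes with 1 to 9 reads and 2 over 31 genes at 0.

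Among the xenobiotic families, Cyp2b23 made up most of the difference. Cyp2b23 belongs to the Cyp2b subfamily, whose member Cyp2b10 is the classic phenobarbital-induced gene of mouse liver. It lies on the minus strand of chromosome 7, at 26665227 to 26693700 in mm10. Its level was 2.64, 2.39 and 2.65 CPM in the knockout libraries and 22.6, 23.5 and 21.9 CPM in the wild-type libraries. The libraries of each genotype lay close together, and the gap between the groups was many times their spread. The pooled level in the knockout was 11.3% of wild type (57 and 699 reads; the exact 95% interval, for counting error alone, is 8.5% to 14.9%), and the log2 fold change was -2.74 (SE 0.123), the 15th lowest of all tested genes. In the authors' deposited edgeR comparison, a different scale, it was -3.14. With 0.25 CPM added in place of 1 CPM before the log, the limma value was -3.03. In bulk RNA, fewer cells with the transcript and less transcript per cell cannot be told apart. Per kilobase of merged GENCODE exons, Cyp2b23 was at 1.17 ± 0.065 CPM in knockout cells, below 7 other members. In wild-type cells it was at 10.4 ± 0.365 CPM, above all other members. The deposited locus of Cyp2b23 begins upstream of its GENCODE gene, so the exon length behind its reads, and with it these ranks, is uncertain. Genes outside the symbol rule, such as Cyp51, were not ranked. Of its stretches of 50 bases, 4.44% also occur in transcripts of another gene, mostly Cyp2b19, which had no read.

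The neighbours of Cyp2b23 were almost silent. Of 5 genes whose lower coordinate lies within 250 kb of its own, Cyp2b19 and Cyp2a5 had no reads, and Nlrp9a, Vmn1r185 and Cyp2g1 had 1 read each, so none could be tested. The whole cluster, from Cyp2s1 to Cyp2t4 (25802476 to 27166802), holds 13 P450 genes, of which 6 had no reads and 3 had at least 10. Cyp2s1 and Cyp2b23 together took 80 of 83, 54 of 56 and 101 of 102 cluster reads in the knockout libraries, and 339 of 341, 324 of 332 and 287 of 290 in the wild-type libraries. Cyp2s1, found mostly in epithelia in the adult and induced through the aryl hydrocarbon receptor, was at 7.91, 6.84 and 8.97 CPM in knockout libraries and 8.06, 7.84 and 8.63 CPM in wild-type libraries. The groups overlapped, with a log2 fold change of -0.05 (SE 0.129, limma adjusted p = 0.855). Part of its exons is covered by Gm26707 on the opposite strand, and reads of the 2 genes could not be told apart without strand. Cyp2t4, at the other end of the cluster, had 3 reads over the knockout libraries and 11 over the wild-type libraries.

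**Figure D2:**
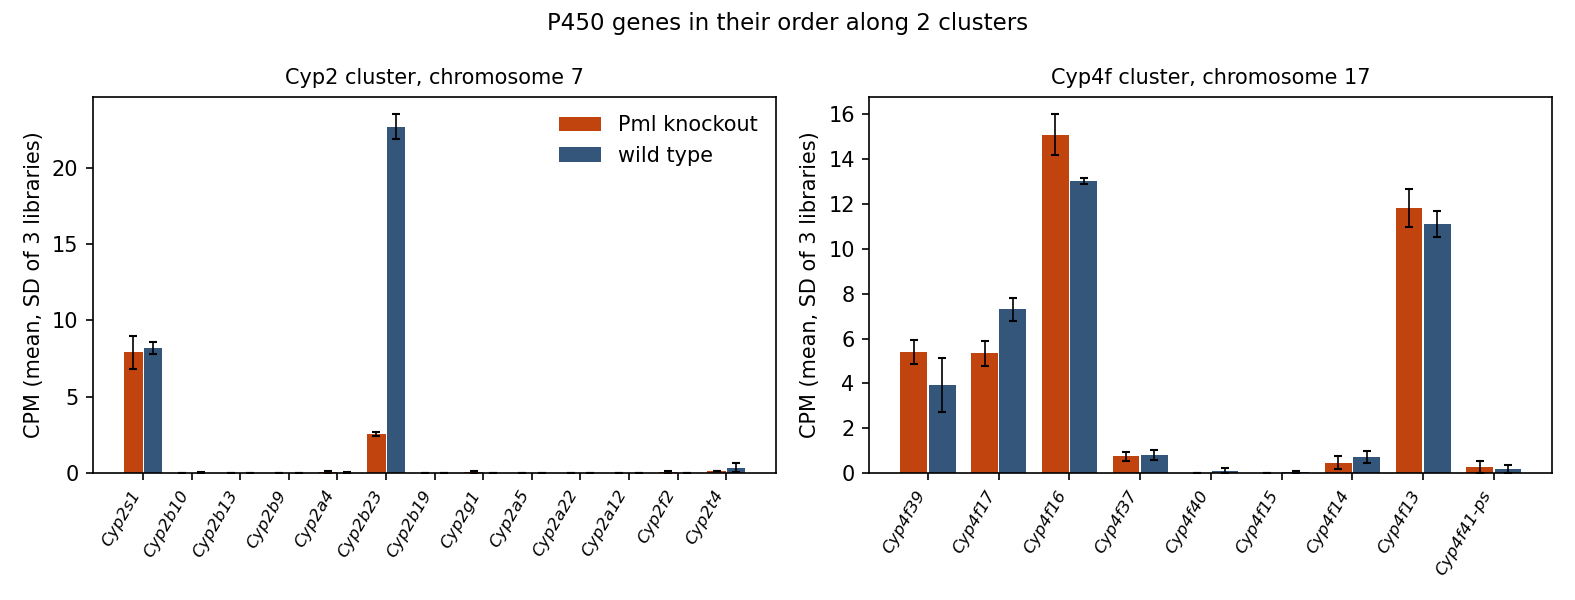
Mean CPM with SD of 3 libraries for the P450 genes of the Cyp2 cluster on chromosome 7 (left) and the Cyp4f cluster on chromosome 17 (right), in their order along the chromosome, knockout bars left of wild-type bars. In the Cyp2 cluster Cyp2b23 was at 2.56 ± 0.142 CPM in the knockout and 22.7 ± 0.800 CPM in wild type, while Cyp2s1 was at 7.91 ± 1.07 CPM in the knockout and 8.18 ± 0.404 CPM in wild type.

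Without Cyp2b23, the xenobiotic families summed to 13.2, 11.5 and 14.7 CPM in the knockout libraries and 11.4, 14.6 and 14.06 CPM in the wild-type libraries, and the groups overlapped. Cyp2e1, the ethanol-oxidizing enzyme of liver, had 1.05, 0.684 and 2.30 CPM in knockout libraries and 0.634, 2.52 and 1.28 CPM in wild-type libraries. The libraries of each group differed among themselves more than the groups did (log2 fold change -0.07, SE 0.254, limma adjusted p = 0.903). Cyp2c70, which makes the muricholic acids of mouse bile, averaged 1.66 ± 0.255 CPM in the knockout and 1.24 ± 0.375 CPM in wild type (log2 fold change 0.26, SE 0.202, limma adjusted p = 0.449). Cyp1a1, the best known target of the aryl hydrocarbon receptor, had 10 reads in the knockout and 22 in wild type, and stood below the filter. Its pooled level in the knockout was 63.2% of wild type, with an exact 95% interval from 26.7% to 139%. Cyp2c69 had 7 reads in the knockout and 10 in wild type, and 54.3% of its 50-base stretches occur in other genes, chiefly Cyp2c40, so the split between copies is uncertain. Cyp2c44, an arachidonic acid epoxygenase gene, had 4 reads in the knockout and 14 in wild type, and Cyp2d22 had 7 in the knockout and 6 in wild type. The Cyp3a genes, the main drug-oxidizing P450 genes of liver and gut, had 7 of 9 members at 0, and the other two had fewer than 10 reads.

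In the sterol and bile acid group, Cyp7b1 fell and the other tested genes did not pass. Cyp7b1 encodes the oxysterol hydroxylase of the alternative pathway of bile acid synthesis and lies on chromosome 3 (18071950 to 18243338, minus strand). It was at 1.05, 0.684 and 1.04 CPM in knockout libraries and 4.71, 3.87 and 3.73 CPM in wild-type libraries. Each knockout library lay well below each wild-type library, with a log2 fold change of -1.41 (SE 0.184, limma adjusted p = 1.96e-06). Because Cyp7b1 passed the filter only through the wild-type libraries, where it is high, it was also fitted with no filter on low values, where the limma adjusted p was 0.000109; over all alternatives the highest was 0.000135. From 21 and 127 reads, the knockout retained 23.0% of wild type, with an exact 95% interval from 13.8% to 36.7%. Of 2 genes whose lower coordinate lies within 250 kb of that of Cyp7b1, Cypt12 had no reads. Bhlhe22, a transcription factor gene at 17.6 kb by that measure, had 6 reads in the knockout and 29 in wild type, below the filter. On the minus strand the lower coordinate of Cyp7b1 is the end of the gene, and Bhlhe22 lies on that side, away from its start.

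Cyp27a1, the mitochondrial enzyme that oxidizes the sterol side chain and so makes substrates for Cyp7b1, was at 2.77, 2.57 and 1.495 CPM in knockout libraries and 2.90, 2.71 and 2.45 CPM in wild-type libraries. The groups overlapped, with 1 knockout library below the rest (log2 fold change -0.19, SE 0.187, limma adjusted p = 0.559). Cyp39a1, another oxysterol hydroxylase, averaged 4.77 ± 0.386 CPM in the knockout and 4.09 ± 0.491 CPM in wild type, and the groups overlapped (log2 fold change 0.18, SE 0.152, limma adjusted p = 0.476). Cyp46a1, the cholesterol hydroxylase of neurons, had 2 reads in the knockout and 11 in wild type, 25.3% of the wild-type level with an interval from 2.72% to 116%. Cyp7a1, the rate-limiting enzyme of the classic bile acid pathway, had 1 read in all, and Cyp8b1 had none.

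**Figure D3:**
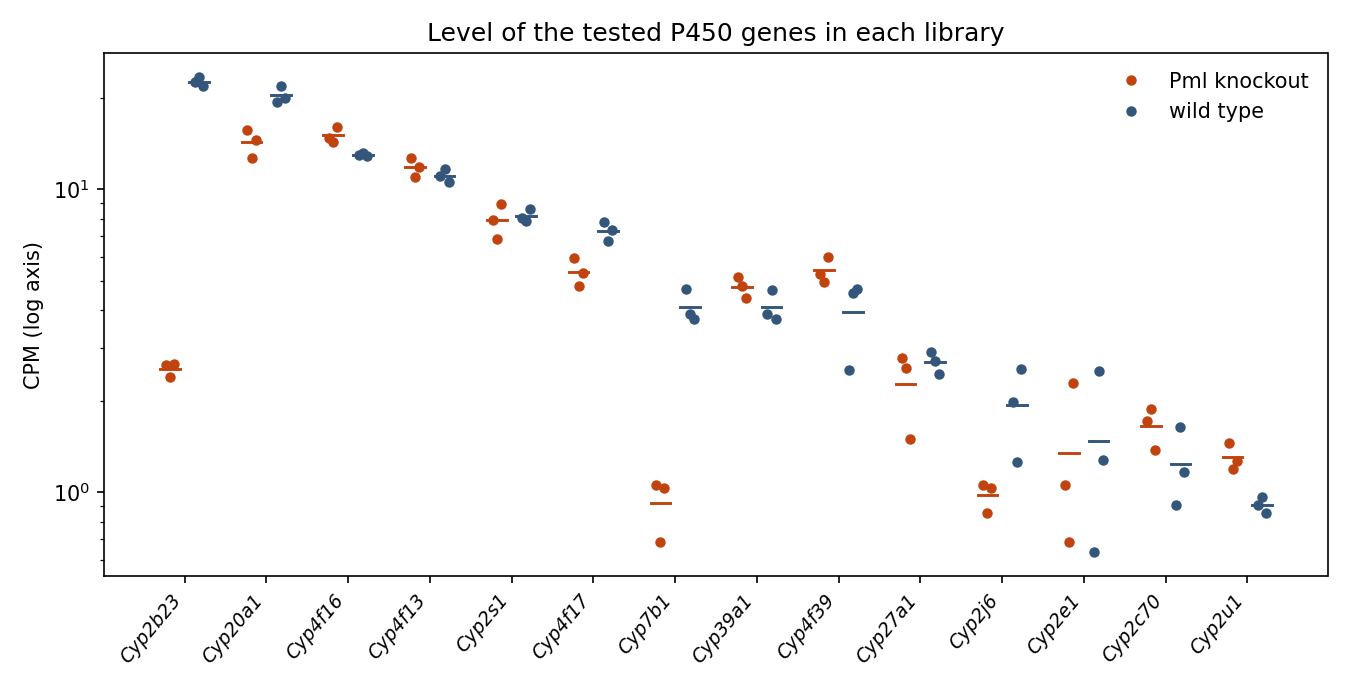
CPM (log axis) of the 14 tested P450 genes in each library, knockout points left of wild-type points, with lines at the group means. Cyp2b23 and Cyp7b1 show the widest gaps, at 2.56 and 0.925 CPM in the knockout against 22.7 and 4.10 CPM in wild type.

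Cyp20a1 fell in the knockout. This gene is widely transcribed and its enzyme has no established substrate. It lies on chromosome 1 (60343037 to 60388056). Its level was 15.7, 12.7 and 14.6 CPM in knockout libraries and 19.4, 21.9 and 20.0 CPM in wild-type libraries. The groups did not overlap, and the difference on the log2 scale was -0.49 (SE 0.0985, limma adjusted p = 0.000879). Its pooled level in the knockout was 70.9% of wild type, with an exact 95% interval from 61.7% to 81.2%. Its 3 neighbours within 250 kb were all tested, and Nbeal1, Abi2 and Raph1 had log2 fold changes of 0.25, 0.00 and 0.17, none past the test (limma adjusted p = 0.0892, 0.999 and 0.0855). Per kilobase of exon Cyp20a1 was the highest of the members in the knockout, at 6.26 ± 0.672 CPM. Among the members in wild type it was second to Cyp2b23, at 8.94 ± 0.571 CPM, an order that rests on the uncertain exon length of Cyp2b23. Of the other genes with no assigned role, Cyp2ab1 had 16 reads in the knockout and 29 in wild type.

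Among the members, fatty acid and eicosanoid P450 genes held the largest share of reads in both genotypes, and none passed the test. They summed to 38.3 to 44.2 CPM in knockout libraries and 39.65 to 42.4 CPM in wild-type libraries. The Cyp4f genes, which hydroxylate fatty acids and leukotrienes, form a cluster on chromosome 17 (32451634 to 32965716) in which 7 of 9 members had at least 10 reads and none was at 0. With Cyp4f18 on chromosome 8, the subfamily summed to 40.2, 35.9 and 41.2 CPM in knockout libraries and 36.2, 37.7 and 37.8 CPM in wild-type libraries. Cyp4f16 was at 14.8, 14.4 and 16.1 CPM in knockout libraries and 13.0, 13.2 and 12.9 CPM in wild-type libraries. The knockout libraries lay above all wild-type libraries, by less than the fit could call (log2 fold change 0.20, SE 0.101, limma adjusted p = 0.211). Cyp4f16 shares 17.4% of its 50-base stretches with other genes, mainly Cyp4f37, which had 17 reads in the knockout and 24 in wild type, so reads of the pair may be split between them. Cyp4f13 was at 11.8 ± 0.855 CPM in the knockout and 11.1 ± 0.590 CPM in wild type (log2 fold change 0.08, SE 0.111, limma adjusted p = 0.688).

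The neighbours Cyp4f39 and Cyp4f17 lay on opposite sides of 0. Cyp4f39, whose human counterpart CYP4F22 makes the very long hydroxylated fatty acids of the skin barrier, was at 5.27, 4.96 and 5.98 CPM in knockout libraries and 2.53, 4.55 and 4.69 CPM in wild-type libraries. The knockout libraries lay above all wild-type libraries, of which the first was far below the others (log2 fold change 0.41, SE 0.170, limma adjusted p = 0.112). Without wild-type replicate 1 the log2 fold change was 0.19. Cyp4f17 was at 5.93, 4.79 and 5.29 CPM in knockout libraries and 7.79, 6.78 and 7.35 CPM in wild-type libraries. The knockout libraries lay below all wild-type libraries, and the difference was just short of the threshold (log2 fold change -0.39, SE 0.137, limma adjusted p = 0.0547). Cyp4f17 passed under 2 of 13 alternatives, without knockout replicate 1 (limma adjusted p = 0.0406) and with the replicate block (0.039). It did not pass under the other 11, and the highest was 0.298, from DESeq2. Cyp4f14 had 11 reads in the knockout and 22 in wild type, Cyp4f41-ps 6 in each, and Cyp4f40 and Cyp4f15 had 3 and 1 in all.

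Cyp2j6 and Cyp2u1, which oxidize arachidonic acid and related fatty acids, were close to the low-value filter. Cyp2j6 was at 1.05, 0.855 and 1.04 CPM in knockout libraries and 1.99, 1.26 and 2.56 CPM in wild-type libraries. The groups did not overlap, but the wild-type libraries were widely spread (log2 fold change -0.54, SE 0.208, limma adjusted p = 0.0805). It passed the filter only through the wild-type libraries, and its limma adjusted p with no filter was 0.0844. Cyp2u1 was at 1.45, 1.20 and 1.27 CPM in knockout libraries and 0.905, 0.969 and 0.852 CPM in wild-type libraries, without overlap (log2 fold change 0.27, SE 0.204, limma adjusted p = 0.422). Exons of Cyp2u1 are overlapped by 4930534D22Rik on the opposite strand. Cyp2j9 had 5 reads in the knockout and 11 in wild type. The Cyp4a genes, which in liver are targets of PPARA, had 5 of 8 members at 0 and fewer than 10 reads in each of the others.

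**Figure D4:**
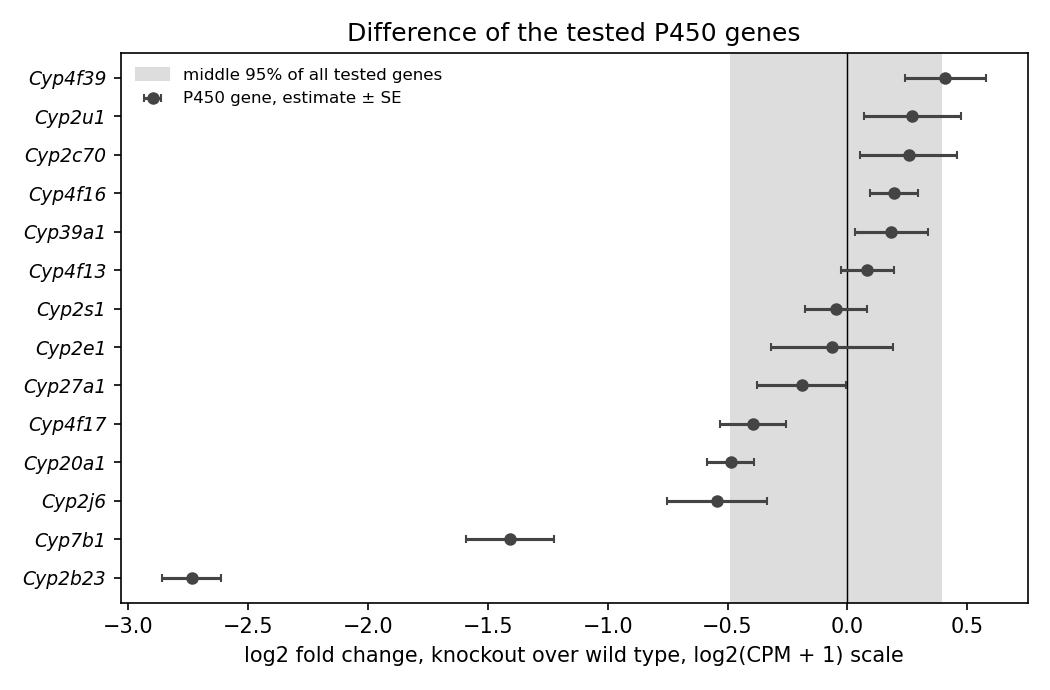
Log2 fold change, knockout over wild type, with SE for the 14 tested P450 genes; the grey band holds the middle 95% of all 12435 tested genes (-0.49 to 0.39). Cyp2b23 and Cyp7b1 lie far below the band, at -2.74 and -1.41, and Cyp2j6, Cyp20a1 and Cyp4f39 lie near its edges.

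Steroid hormone and vitamin P450 genes were low in both genotypes, and none passed the filter. Cyp11a1, which cleaves the cholesterol side chain in the first step of steroid hormone synthesis, had the most reads. It was at 0.396, 0.855 and 0.920 CPM in knockout libraries and 1.27, 1.36 and 1.07 CPM in wild-type libraries. The groups did not overlap, and the pooled level was 58.5% of wild type, with an exact 95% interval from 30.5% to 108%. A same-strand transcript, Gm17322, overlaps part of its exons. Cyp17a1 and Cyp19a1 had 4 and 9 reads in all, and Cyp11b1, Cyp11b2 and Cyp21a1 had none. Cyp27b1, which activates vitamin D, had 13 reads in the knockout and 24 in wild type, and Cyp26b1, which degrades retinoic acid, had 10 in the knockout and 8 in wild type. Cyp24a1, Cyp26c1 and Cyp2r1 had 1, 1 and 5 reads in all.

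Of the 14 genes with at least 10 reads that stood under the filter, the exact 95% interval of the pooled ratio included 100% of wild type in all 14. All knockout libraries stood lower than any wild-type library in 4 of them (Cyp11a1, Cyp2c44, Cyp2t4 and Cyp46a1) and higher in 0. Of all tested genes 15.0% stood lower and 15.1% higher, but those genes passed the filter, and the share among genes as low as these was not computed. Few reads set the groups apart here: Cyp2t4 had 1, 1 and 1 reads in the knockout libraries and 2, 7 and 2 in the wild-type libraries. The count of 4 is a description only. These 14 genes held 12 to 54 reads each, so differences were not detectable at this depth unless large. The 32 genes with 1 to 9 reads held 35 reads in the knockout and 56 in wild type.

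**Figure D5:**
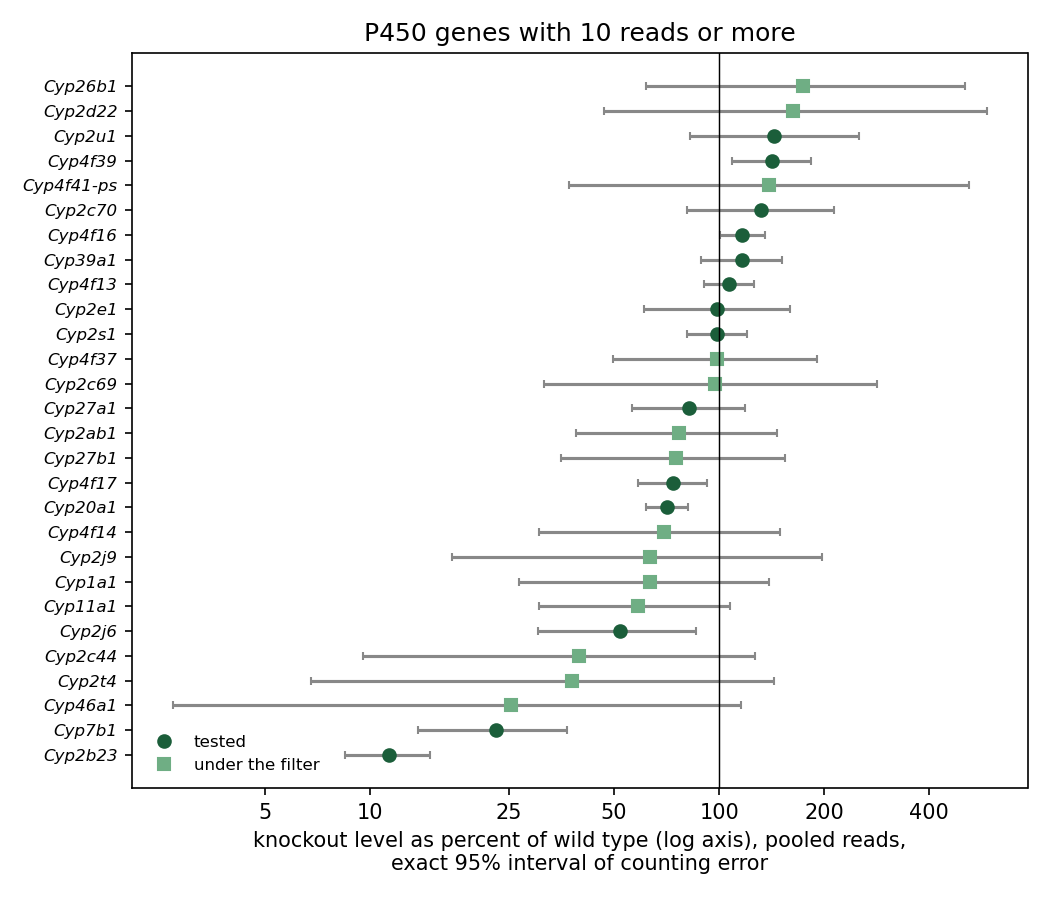
Knockout level as percent of wild type (log axis) for the 28 P450 genes with at least 10 reads, from pooled reads with the exact 95% interval of counting error; circles passed the filter, squares did not. Intervals that lie wholly below 100% are those of Cyp2b23, Cyp7b1, Cyp20a1, Cyp4f17 and Cyp2j6, and those wholly above are those of Cyp4f39 and Cyp4f16. The intervals leave out variation between libraries, and Cyp4f17, Cyp2j6, Cyp4f39 and Cyp4f16 did not pass the limma fit. The share of all genes with such intervals was not computed.

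P450 genes that the symbol rule left out were looked at beside the members. Cyp51, the sterol demethylase of cholesterol synthesis, was at 73.3 ± 4.96 CPM in the knockout and 80.8 ± 1.72 CPM in wild type (log2 fold change -0.14, SE 0.0525, limma adjusted p = 0.0743). It was called lower with the replicate block and without knockout replicate 1, but under no other alternative. Ptgis, prostacyclin synthase, was at 16.6 ± 2.82 CPM in the knockout and 17.3 ± 1.58 CPM in wild type (limma adjusted p = 0.768). Cyp26a1 had 1 read and the thromboxane synthase gene Tbxas1 none.

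P450 enzymes depend on redox partners and heme. Of 10 redox partners 1 was lower in the knockout and 9 did not pass the test, near the 7.49% of all tested genes that were lower, with a median log2 fold change of -0.02. Por, the reductase that feeds electrons to P450 enzymes of the endoplasmic reticulum, was at 81.3 ± 3.31 CPM in the knockout and 86.3 ± 2.71 CPM in wild type (limma adjusted p = 0.262). Cyb5b, the cytochrome b5 of the outer mitochondrial membrane, fell to 210.3 ± 0.135 CPM in the knockout, against 239 ± 5.46 CPM in wild type (log2 fold change -0.18, SE 0.0342, limma adjusted p = 0.000317). Of 12 tested genes of heme synthesis and breakdown 1 was lower and 11 did not pass, again near 7.49%, with a median of -0.02. Alad, which joins aminolevulinate units to porphobilinogen, had a log2 fold change of -0.29 (SE 0.0757, limma adjusted p = 0.0101), which did not pass without knockout replicate 1 (0.0689), wild-type replicate 1 (0.0528) or wild-type replicate 2 (0.0529).

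Of 14 tested ligand-activated regulators and their partners 2 were higher and 12 did not pass (all tested genes, 6.54% higher), with a median of -0.02. Nr1h2, the oxysterol receptor LXR beta, rose by 0.22 on the log2 scale (SE 0.05, limma adjusted p = 0.00343). Arnt, the partner of AHR, had 0.16 (limma adjusted p = 0.0162), and did not pass without knockout replicate 3 (0.0820), wild-type replicate 2 (0.0680) or wild-type replicate 3 (0.0557). Ahr itself was at 11.8 ± 0.999 CPM in the knockout and 13.7 ± 1.34 CPM in wild type (limma adjusted p = 0.231), a gene named after its values were seen. Nr1i3 and Nr1i2, the receptors CAR and PXR that induce Cyp2b and Cyp3a genes in liver, were near 0: Nr1i3 had 4 reads in each genotype, and Nr1i2 had 11 in the knockout and 10 in wild type. Both are named after their values were seen.

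Enzymes that conjugate or hydrolyse P450 products were lower in the knockout in 8 of 19 tested (all tested genes, 7.49%), and 11 did not pass, with a median log2 fold change of -0.20. Ephx2, the soluble epoxide hydrolase, fell to 123.4 ± 5.26 CPM in the knockout, against 171.8 ± 1.21 CPM in wild type (log2 fold change -0.47, SE 0.0404, limma adjusted p = 4.37e-10). Ephx1, the microsomal epoxide hydrolase, fell to 17.05 ± 1.53 CPM in the knockout, against 25.7 ± 1.22 CPM in wild type. Nqo1, a quinone reductase, and Sult4a1, a sulfotransferase relative, fell by 0.38 and 0.36 on the log2 scale. The other called genes were Gstp1, Gstp2, Gstm1 and Ugdh, and the near-identical Gstp1 and Gstp2 can share reads. Ugdh did not pass without knockout replicate 1 (0.0697), wild-type replicate 2 (0.0716) or wild-type replicate 3 (0.141). Of 13 tested steroid, bile acid and eicosanoid enzymes 1 was higher and 12 did not pass, near the 6.54% of all tested genes, with a median of 0.04. That gene was Ptges, prostaglandin E synthase, at 50.3 ± 1.74 CPM in the knockout and 43.7 ± 4.30 CPM in wild type (limma adjusted p = 0.0348), and its call was lost without any 1 library other than wild-type replicate 2, with 0.207 as the highest adjusted p.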

How the data were processed

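Per the labels' protocols, libraries were made with an Illumina TruSeq RNA kit. The submitters' processing notes name cutadapt for trimming, TopHat for alignment, mm10 as the build and edgeR for the comparison. Not given in the sources used here: gene annotation, counting tool, strandedness and tool versions. The authors deposited CPM of each library. Per the file headers, their log2 fold change and p-value for every gene stand in the same table, of which only the log2 fold change of Cyp2b23 was used.

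Of 25833 rows, 1097 without values and 315 repeats were removed. The deposited CPM came out as whole reads in 100% of values within 0.01 of a read. Columns were tied to samples by genotype and replicate number in their names. A chi-square test of recovered reads between pairs of libraries gave 1.33 to 1.64 per degree of freedom within groups and 3.19 to 4.53 between them, so all 6 libraries were counted.

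The table held CPM, so limma 3.58.1 (intensity trend, R 4.3.3) was fitted to log2(CPM + 1) of the 6 libraries, without covariate, over the 12435 genes kept by filterByExpr, with Benjamini-Hochberg adjustment over all of them. edgeR 4.0.16 (quasi-likelihood) and DESeq2 1.42.0 were run on recovered reads; edgeR called 1820 genes. The pipeline was tested on simulated data. Exon lengths, overlaps and 50-base matches come from GENCODE M21 (101 of 103 genes matched) and start regions from RefSeq. Deposited starts were raised by 1 base. Intervals and floors (3 reads, pooled over a group) cover counting error only; molecular identifiers are not mentioned. In the smallest library 3 reads are 0.513 CPM and in the largest 0.272.

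The members and lists were chosen with earlier results of these data known. Every member past the filter was named, members with 10 reads or more by their reads, and up to 4 called genes, or the 2 most abundant, per list. Other genes were named after their values were seen.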

Additional observations from a re-analysis of the deposited data

How the results depend on the processing

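Cyp7b1 and Cyp20a1 were lower in the knockout and past the threshold under all 13 alternatives, with log2 fold changes of -2.13 to -1.31 and -0.55 to -0.41; Cyp7b1 had passed the low-value filter only through wild type. Cyp2b23, given as a description, ranged over -3.14 to -2.70. The alternatives were a pseudocount of 0.25, no filter, a filter on the mean CPM, TMM scaling, edgeR, DESeq2, the replicate block and leaving out each library. The count of members lower in the knockout, Cyp2b23 included, was 3 or 4 and of members higher 0 throughout. Over all genes 1745 were called, 813 higher and 932 lower; DESeq2 called 796, 333 higher and 463 lower. Leaving out 1 library gave 1160 to 1852 calls, 512 to 872 of them higher and 632 to 980 lower, with the lowest total without wild-type replicate 2. The flat genes Cyp2s1 and Cyp2e1 changed sign: leaving out 1 library, Cyp2s1 ranged over -0.13 to 0.0398, above 0 without knockout replicate 2, and Cyp2e1 over -0.34 to 0.22, above 0 without knockout replicate 1 (0.00053), knockout replicate 2 (0.14) and wild-type replicate 2 (0.22); the cause was not tested. Members with at least 10 reads numbered 28, or 41 at 3 reads, 20 at 30 reads, 21 in the knockout alone, 25 in wild type alone and 26 to 28 without 1 library. Same-numbered libraries deviated together only weakly (correlations of 0.0755, 0.0603 and 0.0136), though each correlated best with its own number. With the replicate block 2337 genes were called, and Cyp4f17 passed (adjusted p = 0.039). Cyp2j6, which had passed the filter through wild type alone, was called only without wild-type replicate 2 (0.0462). With no filter 60 members were tested and the same 3 called. Among list genes, DESeq2 lost Alad, Arnt, Ugdh and Ptges, and the run with no filter lost Ptges.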
